A study of Mus musculus with 4 samples.

Results

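The immediate early response was followed through single cells of B16F10 tumours by 10 of its genes: Fos, Fosb, Jun, Junb, Jund, Egr1, Ier2, Atf3, Nr4a1 and Dusp1. They were chosen by name, and all 10 are among the 31053 genes listed in each library. B16F10 is an established melanoma line of the C57BL/6 mouse. The 4 libraries, 1 per group, were a control, antibody against PD-1 (aPD-1), doxorubicin with fasudil (D+F), and doxorubicin, fasudil and the antibody together (D+F+P). Doxorubicin is an anthracycline that damages DNA, fasudil is a ROCK inhibitor, and PD-1 is an inhibitory receptor of T cells. All groups carried the same tumour line, and tumour tissue was dissociated, freed of red blood cells, debris and dead cells, and put through the 10x 5′ chemistry. Mouse age, dose, time and the number of mice per library were not given in the sources used here.

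Immediate early genes are transcribed within minutes of a signal, without new protein synthesis, when kinases of the ERK, JNK and p38 families act on factors already present in the cell. Their products include the subunits of the AP-1 factor, other transcription factors and a phosphatase that switches the kinases off again. Dissociating a tissue is itself known to induce them, so their level in a single-cell library can hold both the state of the tumour and the response to handling. The comparisons below ask whether the genes differed between libraries in every cell group or in some only. Treatment, handling and the single library cannot be told apart, since each treatment was 1 library.

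After filtering, 2286 cells of the control library remained, 2240 of aPD-1, 2490 of D+F and 2445 of D+F+P, and any pair of libraries shared between 1 and 14 cell barcodes. The D+F+P library stood apart. Its median depth was 1876 UMIs (unique molecular identifiers, counted transcripts) a cell, against 9589 to 16162.5 in the other 3, and its median share of ribosomal protein UMIs was 14.0% against 19.7% to 21.6%. A large part of it consisted of thin barcodes: cluster 3, nearest to T cells by markers and unnamed, held 718 of its cells and 17 to 103 of the others. These thin clusters were kept out of the named classes. The groups compared in full were melanoma-like cells (1914 cells in control, 1111 in aPD-1, 1703 in D+F and 527 in D+F+P), T-like cells (21, 403, 203 and 407 in the same order, which all series of 4 values below follow), NK-like cells (40, 42, 47 and 76), monocyte/macrophage-like cells (59, 203, 83 and 72) and cluster 9 (25, 47, 91 and 128). The low depth of the D+F+P library did not hold within these groups. Its melanoma-like cells had a median of 28887 UMIs, against 16436 to 18810 in the other libraries. Their median ribosomal share was 22.6%, against 20.1% to 22.2%. T-like cells had a median of 9764 UMIs in D+F+P, against 5009 to 6385. NK-like cells had 3153.5, against 2483 to 3347. CPM stands for the UMIs of a gene or list per 1000000 UMIs of that cell group and library. Cluster 9 had all 7 T cell markers but stayed unnamed, because its 10 leading genes held a monocyte marker (Ly6c2) and a dendritic cell marker (Ccr7) and none of the T cell list. Monocyte and macrophage markers summed to 883 to 1452 CPM there, against 10359 to 19009 in the monocyte/macrophage-like class. Cluster 6, thin barcodes nearest to melanoma, also had over 20 cells in every library and was left out of the main set. In the melanoma-like class the pigment cell markers summed to between 9913 and 10622 CPM, with none of them at 0.

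The label "T-like" covered different cells in different libraries. Of the 21 control T-like cells, 13 lay in the cluster led by Foxp3 and 8 in the other T-like cluster, while in D+F+P the same clusters held 44 and 363. Ratios of T-like cells against control therefore also compared different clusters. With 1 library per group there was no test between groups. Intervals are 95% counting intervals, and they leave out variation between animals and between libraries.

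The promoters show what regulatory sequence the members share. The 250 bases before the RefSeq start (GRCm38.p6) were matched for 8 of the 10 genes. Windows of Ier2 and Egr1 were not included, so the counts below describe the other 8 genes only. The core of the cAMP response element, TGACG (searched on both strands, so CGTCA also counts), is bound by CREB and ATF proteins. It was present in 6 of the 8 windows, while 17.8% of 32851 mouse promoter windows of this length held it. The windows of Fos (chr12:85473640-85473889, plus strand), Fosb (chr7:19310046-19310295, minus strand), Nr4a1 (chr15:101266596-101266845, plus strand) and Dusp1 (chr17:26508473-26508722, minus strand) are printed 5′ to 3′ with the cores in capitals, because these genes held between 1 and 4 of them and differed in how they varied across the cell groups.
Fos: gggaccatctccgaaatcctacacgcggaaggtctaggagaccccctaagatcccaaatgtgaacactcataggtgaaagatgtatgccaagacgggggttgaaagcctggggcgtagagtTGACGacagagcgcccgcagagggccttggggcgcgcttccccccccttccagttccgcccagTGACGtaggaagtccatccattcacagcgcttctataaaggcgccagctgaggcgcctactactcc
Fosb: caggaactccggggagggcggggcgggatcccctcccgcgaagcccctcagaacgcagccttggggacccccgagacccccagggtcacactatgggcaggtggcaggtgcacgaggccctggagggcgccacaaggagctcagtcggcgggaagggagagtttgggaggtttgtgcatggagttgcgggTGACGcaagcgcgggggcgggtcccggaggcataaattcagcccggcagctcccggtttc
Nr4a1: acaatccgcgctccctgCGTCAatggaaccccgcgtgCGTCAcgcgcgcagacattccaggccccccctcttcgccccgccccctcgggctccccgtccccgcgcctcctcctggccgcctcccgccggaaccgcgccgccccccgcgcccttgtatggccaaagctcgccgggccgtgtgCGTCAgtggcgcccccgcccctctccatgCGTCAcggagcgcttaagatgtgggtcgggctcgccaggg
Dusp1: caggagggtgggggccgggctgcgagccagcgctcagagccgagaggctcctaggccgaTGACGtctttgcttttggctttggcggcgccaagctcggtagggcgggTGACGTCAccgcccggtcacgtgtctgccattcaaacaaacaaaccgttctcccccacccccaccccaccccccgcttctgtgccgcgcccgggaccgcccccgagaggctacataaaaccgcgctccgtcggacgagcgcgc
Fos held 2 cores, Fosb 1, Nr4a1 4 and Dusp1 3, of which a pair in Dusp1 overlap as the full palindrome TGACGTCA. That full element was in none of the other 7 windows and in 1.55% of all windows. Junb and Atf3 held 1 core each, and the windows of Jun and Jund held none. The Jund window of this table lies more than a kilobase upstream of the start in the GENCODE annotation, so it was not printed. None of these windows held a CArG box (the site of serum response factor, in 1.47% of all windows) or the AP-1 element TGACTCA (4.46%). Bases beyond these windows, and the promoters of Ier2 and Egr1, were not searched for either. The Nr4a1, Dusp1 and Atf3 windows lie inside the span that GENCODE gives these genes, which begins farther upstream. A match here is a description of letters, not of binding.

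Each gene had its own order among the 10 cell groups with 10 cells or more in every library. Neutrophil-like cells (20, 9, 3 and 2) were too few to be ranked, and their Dusp1 (5404, 2852, 2273 and 3170 CPM), Junb (3515, 3169, 2778 and 1812) and Egr1 (1318, 1479, 2273 and 0) rest on 4 to 123 UMIs a library, or none for Egr1 in D+F+P. These values lay above those of the group ranked first in 4 of 4 libraries for Dusp1, 2 for Junb and 3 for Egr1. Among the ranked groups Fos, whose product pairs with Jun proteins in AP-1, was highest in fibroblast-like cells (median over libraries 1224 CPM, range 557 to 1476) and monocyte/macrophage-like cells (1144, 607 to 1422), ranges that overlapped. It was lowest in T-like cells (109, 102 to 112), whose range overlapped that of plasmacytoid dendritic-like cells just above. Egr1, a zinc finger factor, spanned the widest range: 929 (482 to 1089) in fibroblast-like cells against 6.55 (3.43 to 21.1) in melanoma-like cells, and no UMI in plasmacytoid dendritic-like cells of any library. Jun, the partner of Fos, was highest in fibroblast-like cells (1566, 889 to 2454), with melanoma-like cells next (636, 505 to 737). Junb was highest in NK-like cells (2601, 2356 to 2821) and cluster 9 (2401, 1918 to 2614), whose ranges overlapped. Atf3, a stress-induced member of the ATF family, was highest in monocyte/macrophage-like cells (1101, 1007 to 1378) and lowest in T-like cells (30.6, 24.5 to 48.0). Dusp1, the phosphatase that switches off MAP kinases, was also highest in monocyte/macrophage-like cells (1466, 911 to 1791), a range that overlapped that of fibroblast-like cells (621, 403 to 1007) but not that of dendritic-like cells, next by median. Nr4a1, an orphan nuclear receptor induced in T cells by antigen receptor signal, was highest in cluster 9 (540, 438 to 814) and NK-like cells (536, 385 to 595). Ier2, a nuclear protein of the early response, was highest in the same pair of groups (513, 373 to 760, and 490, 393 to 637). These are ranges over 4 libraries of different treatment, not replicate errors.

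**Figure D1:**
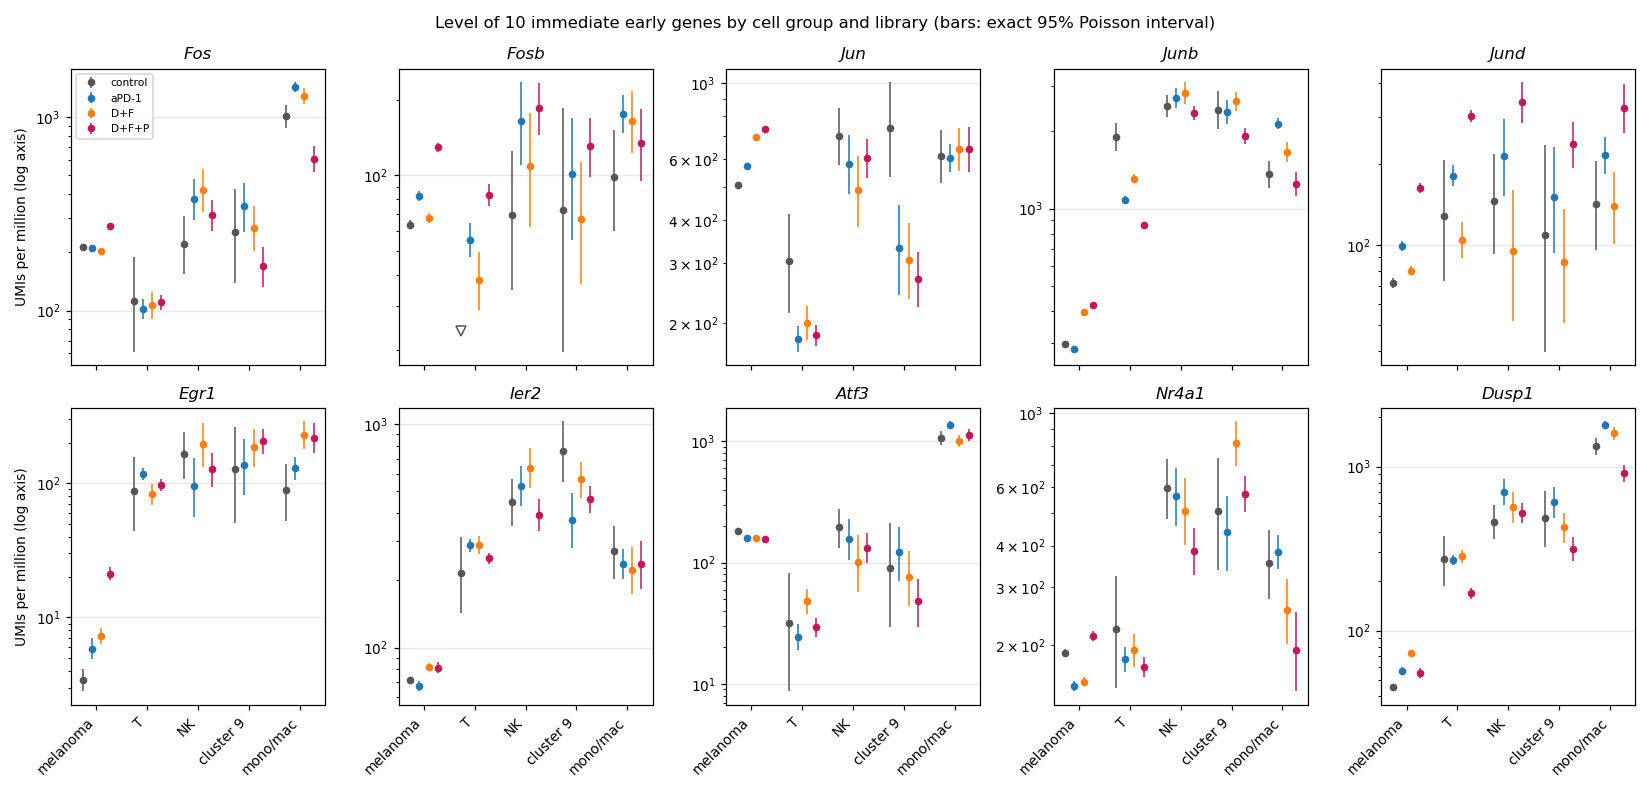
Level of the 10 genes (CPM, log axis) in 5 cell groups. Each point is 1 library, and bars are exact 95% Poisson intervals. The open triangle is a level of 3 UMIs, set in place of 0, for Fosb in control T-like cells. Jund in D+F+P is the highest of the 4 points in every group, while Egr1 in melanoma-like cells lies below every other group shown.

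Jund was higher in D+F+P than in every other library in all 5 cell groups. Its product is the AP-1 subunit that is present in resting cells and less inducible than the others. In melanoma-like cells Jund was at 71.9 CPM in control, 98.9 in aPD-1, 80.1 in D+F and 163 in D+F+P. In T-like cells it was at 128, 181, 104 and 302 in the same order. In NK-like cells the values were 146, 214, 94.9 and 341. D+F+P was the highest library in all 3 groups, and D+F was below control in T-like and NK-like cells. Monocyte/macrophage-like cells had 142, 216, 139 and 325, and cluster 9 had 109, 151, 86.2 and 237. Against control, D+F+P was 2.26-fold higher in melanoma-like cells (log2 ratio 1.18, 1.09 to 1.26), and the log2 ratio of the 5 groups ran only from 1.13 in cluster 9 to 1.24 in T-like cells. The gap between those extremes was 0.11, with an interval of -1.27 to 1.496, which is wide because control T-like cells and control cluster 9 held 16 and 6 Jund UMIs. The interval of the ratio lay above 0 in 4 of the 5 groups, cluster 9 being the exception (-0.04 to 2.61).

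The other treated libraries were compared in the same way. Against D+F, Jund was higher in D+F+P in all 5 groups, by a log2 ratio of 1.02 in melanoma-like to 1.84 in NK-like cells, with every interval above 0. Against aPD-1 it was higher by 0.59 to 0.74, with the interval above 0 in 4 of the 5 groups and including 0 in cluster 9 (0.65, -0.03 to 1.41). Dendritic-like cells, compared only where both libraries had 20 cells, had log2 ratios of 1.84 against D+F and 1.004 against aPD-1, and fibroblast-like cells 0.98 against aPD-1. Of 1892 genes with at least 20 UMIs in every pair, 17 (0.899%) were at least 1.5-fold higher in D+F+P than in control in all 5 groups. Jund was the member among them. Against D+F the share was 0.703% and against aPD-1 0.609%, and Jund was again the member that passed. Some of these ratios changed with how cells were weighed or with thinning. In monocyte/macrophage-like cells the log2 ratio against aPD-1 was 0.15 with every cell weighted equally. In NK-like cells it was 0.0088 with each cell thinned at random to 1000 UMIs. The same thinning took the NK-like ratio against control from 1.23 to 3.39. Even before thinning, NK-like cells held 23 Jund UMIs in control and 38 in aPD-1, so the thinned ratios rest on fewer. When cluster 6 was added as a further group, Jund had too few UMIs there to be compared (5 in control and 2 in D+F+P), and 4 of 1035 genes (0.386%) were higher in every group.

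Other properties moved with this difference. The Jund transcript has a GC content of 67.1%, above that of 99.8% of the 1892 genes, and the 17 genes had a median of 56.9% against 50.2% for all 1892. Jund is a gene of 1 exon on chromosome 8 (GRCm38, 70698949 to 70700616, plus strand), and the antisense gene Gm11175 overlaps it. The strand setting of the counting was not given in the sources used here, so reads of that pair may not be separable. The part of GC content, library depth or overlap in the Jund difference was not tested.

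Fosb, a Fos relative that is strongly inducible, was also high in D+F+P, but less evenly. In melanoma-like cells it was at 63.4 in control, 82.6 in aPD-1, 67.7 in D+F and 129 CPM in D+F+P, so D+F+P was 2.03-fold above control (log2 ratio 1.02, 0.93 to 1.11). In T-like cells it was at 55.3 in aPD-1, 38.1 in D+F and 83.6 in D+F+P. The 21 control T-like cells held no Fosb UMI, which at a floor of 3 UMIs for that library makes D+F+P at least 3.49-fold higher. NK-like cells had 69.6, 164, 108 and 185. In NK-like cells aPD-1 and D+F+P lay close together, both above control. In monocyte/macrophage-like cells control was lowest (98.1) and aPD-1 highest (175), with D+F+P (134) and D+F (165) between them. In melanoma-like cells the excess over aPD-1 was a log2 ratio of 0.64, which was 0.32 after thinning to 1000 UMIs a cell and 0.58 without the low-ribosomal melanoma-like cluster. The excess over D+F, 0.93, was 0.53 after thinning.

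Fos went in opposite directions in melanoma-like and monocyte/macrophage-like cells. Melanoma-like cells had 212 CPM in control, 209 in aPD-1, 202 in D+F and 272 in D+F+P, the highest of the 4 (log2 ratio against control 0.36, 0.31 to 0.42). Monocyte/macrophage-like cells had 1006, 1422, 1282 and 607, and D+F+P was the lowest. Its log2 ratio was -0.73 (-1.03 to -0.43) against control and -1.23 (-1.47 to -0.99) against aPD-1. With every cell weighted equally the ratio against control was -0.37. T-like cells held Fos at 112, 102, 106 and 111, a span well inside the counting interval of the control value (61.2 to 188).

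Jun was highest in D+F+P among melanoma-like cells: 505 in control, 575 in aPD-1, 697 in D+F and 737 CPM in D+F+P. In monocyte/macrophage-like cells it was at 613, 605, 643 and 643, so no library stood out. In cluster 9 control was highest, at 742 against 330, 306 and 269, but it rests on 41 UMIs in 25 cells. The log2 ratio of D+F+P against control was 0.54 in melanoma-like cells and -1.46 in cluster 9, a gap of 2.01 (1.49 to 2.52). The antisense gene Junos overlaps Jun.

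Junb, an AP-1 subunit with its own targets in lymphocytes, also parted the tumour cells from the T-like cells. Melanoma-like cells had 297 in control, 285 in aPD-1, 395 in D+F and 422 CPM in D+F+P. T-like cells had 1903, 1085, 1310 and 861, with D+F+P lowest. NK-like cells had 2512, 2691, 2821 and 2356, a narrower span. D+F+P against control gave a log2 ratio of 0.51 in melanoma-like and -1.14 in T-like cells, a gap of 1.65 (1.46 to 1.85), with the different T-like clusters noted above. Against D+F, a comparison of 407 with 203 T-like cells, the ratio was -0.61 (-0.68 to -0.53), and it lay between -0.45 and -0.57 under 6 alternatives, below 1.5-fold. Prdx2 overlaps Junb on the other strand.

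Atf3 differed less between libraries than between cell groups. Melanoma-like cells had 183, 160, 159 and 156 CPM, and monocyte/macrophage-like cells 1065, 1378, 1007 and 1137. Control was highest in the first group and aPD-1 in the second. In T-like cells the level was 32.0, 24.5, 48.0 and 29.2, where control held 4 UMIs and D+F was highest. The D+F+P to D+F log2 ratio there, -0.72, was -0.29 after thinning.

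Egr1 had its largest ratio in melanoma-like cells, where its level was low. It was at 3.43 CPM in control (113 UMIs), 5.85 in aPD-1 (123), 7.26 in D+F (207) and 21.1 in D+F+P (312). D+F+P was 6.17-fold above control (log2 ratio 2.62, 2.31 to 2.95), 2.91-fold above D+F and 3.61-fold above aPD-1. No single cell held more than 7.32% of these UMIs in any library. The ratio against control was above 0 in each of the 5 melanoma-like clusters, between 0.63 and 2.95, the smallest in the low-ribosomal one. Thinning to 1000 UMIs a cell gave 3.45, and weighting cells equally 2.14. Control melanoma-like cells had a median of 17756.5 UMIs, so thinning leaves only a small part of the 113 control Egr1 UMIs. Thinned Egr1 ratios here therefore rest on few UMIs. Against aPD-1 the ratio of 1.85 was 3.24 after thinning. For aPD-1 against control the log2 ratio of 0.77 was 0.21 after thinning. Its mean over the 5 melanoma-like clusters was 0.22, with 4 of them above 0 and a highest of 1.70. The lowest, -2.30, came from the low-ribosomal cluster, with 48 cells in control and 46 in aPD-1.

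Markers of other cells in the melanoma-like class were low but not constant. The 7 T cell markers summed to 3.58 CPM in control, 13.0 in aPD-1, 5.51 in D+F and 14.4 in D+F+P, with none of the 7 at 0 in any library. NK cell markers summed to 0.394, 0.380, 0.491 and 2.10, with 0, 2, 1 and 0 of them at 0. The markers of fibroblast-like cells, the ranked class with the highest Egr1, were at 3.27, 2.90, 2.14 and 2.91. Those of monocytes and macrophages were at 5.52, 8.22, 6.53 and 4.47, with 5 of them at 0 in D+F+P. In D+F+P, T cell markers in melanoma-like cells reached 0.318% of their level in T-like cells, a proportion at which T-like Egr1 would supply 0.309 of the 21.1 CPM. The part of other cells' RNA in the remainder was not tested.

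In monocyte/macrophage-like, T-like and NK-like cells Egr1 was not highest in D+F+P. Cluster 9 had the same order of libraries as melanoma-like cells, at 127, 136, 187 and 205 CPM, but its control value rests on 7 UMIs. Monocyte/macrophage-like cells had 88.3, 130, 229 and 219 CPM. In D+F+P 1 of 72 cells supplied 45.2% of the 62 Egr1 UMIs. The log2 ratio against control, 1.31 (0.53 to 2.15), became -1.69 when cells were named by their own markers rather than by cluster, and that against aPD-1, 0.76, became -1.23. T-like cells had 87.9, 117, 82.8 and 97.1, with no library apart, and NK-like cells 165, 95.9, 197 and 127. The gap between melanoma-like and NK-like cells in D+F+P against control was 2.99 (2.24 to 3.75).

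Nr4a1 was highest in D+F+P among melanoma-like cells (190, 151, 156 and 214 CPM) and lowest there among monocyte/macrophage-like cells (353, 383, 255 and 194). T-like cells had 224, 182, 194 and 173. The log2 ratio of D+F+P against control was 0.17 in melanoma-like, -0.86 in monocyte/macrophage-like and -0.63 in NK-like cells. The last was 0.0 after thinning and -0.17 with cells weighted equally. Melanoma-like cells also sat in different clusters by library, with 25.6% of them in cluster 0 in control and 47.2% in D+F+P. Within the 5 melanoma-like clusters the Nr4a1 ratio ran from -0.49 to 0.48 and was above 0 in 3.

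Ier2 was at 71.3, 67.4, 81.8 and 81.2 CPM in melanoma-like cells, and at 270, 238, 223 and 237 in monocyte/macrophage-like cells. Cluster 9 had 760, 373, 565 and 461, with control highest on 42 UMIs. Its log2 ratio against control was -1.03 (-1.64 to -0.40) in aPD-1 and -0.72 (-1.21 to -0.21) in D+F+P. NK-like cells had 449, 530, 637 and 393, and D+F+P was below D+F by a log2 ratio of -0.70 (-1.08 to -0.31).

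Dusp1, the feedback phosphatase, was the member lower in D+F+P than in D+F in all 5 groups, and likewise than in aPD-1. Of all genes measured in every group 11.1% and 5.92% were lower throughout in those comparisons. Monocyte/macrophage-like cells had 1330 CPM in control, 1791 in aPD-1, 1602 in D+F and 911 in D+F+P. T-like cells had 272, 271, 284 and 169, so D+F+P was the low library in both groups. In melanoma-like cells D+F was highest (73.5) and control lowest (45.1), with 57.1 in aPD-1 and 55.3 in D+F+P. The log2 ratio against D+F ran from -0.81 (-1.04 to -0.59) in monocyte/macrophage-like to -0.12 (-0.49 to 0.27) in NK-like cells. Against aPD-1 it was -0.05 (-0.18 to 0.08) in melanoma-like cells. Other genes overlap Dusp1 on both strands, and its count may include their reads.

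**Figure D2:**
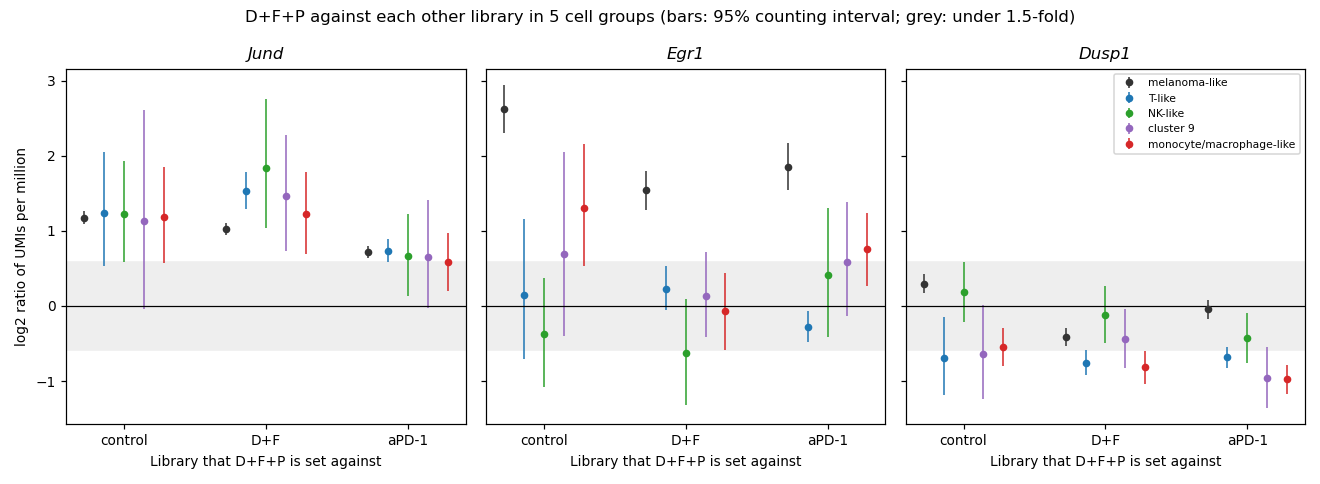
log2 ratio of CPM of D+F+P against each other library for Jund, Egr1 and Dusp1; points are 5 cell groups, bars 95% counting intervals, and the grey band is under 1.5-fold. Jund lies above 0 in all 15 points and Dusp1 below 0 against D+F and aPD-1, while Egr1 in melanoma-like cells lies apart from the other groups.

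Counted together, the members were shifted modestly in tumour cells. In melanoma-like cells the median log2 ratio of the 10 genes against control was 0.09 in aPD-1, 0.18 in D+F and 0.44 in D+F+P, where the medians of all genes measured were -0.05, -0.06 and -0.09. At least 1.5-fold higher were 1 member in aPD-1 (6.57% of all genes), 2 in D+F (7.35%) and 3 in D+F+P (9.98%). None was 1.5-fold lower (6.12%, 4.98% and 10.8% of all genes). The genes were Egr1 in aPD-1, Egr1 and Dusp1 in D+F, and Egr1, Jund and Fosb in D+F+P. Against D+F the median was 0.26, with 3 members higher (5.37% of all genes) and none lower (4.77%). Against aPD-1 it was 0.44, with 3 higher (5.46%) and none lower (4.17%). Egr1, Jund and Fosb were the 3 in both.

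The medians of the immune groups differed in sign in aPD-1 against control: 0.46 in monocyte/macrophage-like, 0.17 in NK-like and -0.07 in T-like cells. In cluster 9, with 9 members measured, it was 0.11. In D+F+P against control all were below 0: -0.03 in monocyte/macrophage-like, -0.07 in T-like and -0.14 in NK-like cells, and -0.46 in cluster 9. The medians of all genes measured were 0.07, -0.04, -0.04 and 0.15 for these groups in turn, so the T-like median lay near its background. For the same groups in turn the members' medians were -0.18, -0.15, -0.19 and -0.36 against D+F, and -0.33, -0.02, -0.22 and 0.0052 against aPD-1. Those of all genes were -0.0075, -0.01, 0.05 and 0.03 against D+F, and -0.06, -0.01, 0.05 and 0.06 against aPD-1. In monocyte/macrophage-like cells the median was 0.46 in aPD-1 against control, where 3 members were higher (23.9% of all genes) and none lower (12.4%), the 3 being Fosb, Junb and Jund. In D+F+P against control it was -0.03, with Egr1 and Jund higher (21.4%) and Fos and Nr4a1 lower (16.0%). Against aPD-1 it was -0.33, with Egr1 and Jund higher (12.4%) and Fos, Nr4a1, Dusp1 and Junb lower (18.7%). T-like cells of D+F+P against D+F had a median of -0.15, with Jund and Fosb higher (12.4%) and Dusp1, Atf3 and Junb lower (8.22%). Against aPD-1 it was -0.02, with Jund and Fosb higher (8.28%) and Dusp1 lower (7.21%). Fosb against aPD-1, at 0.60, was 0.48 without the cluster led by Foxp3, below 1.5-fold. With the low-ribosomal T barcodes put back, those medians were 0.08 and 0.22. NK-like cells of D+F+P against control had Fosb and Jund higher (18.3%) and Nr4a1 lower (19.5%). Cluster 9 had Jund, Fosb and Egr1 higher (31.1%) and Jun, Atf3, Ier2, Dusp1 and Fos lower (17.6%), and the control arm there had 25 cells. The counting interval excluded 0 for 2 of these 5 lower genes and for none of the 3 higher ones. A count of members near these backgrounds is no result about them. Pigment cell markers in the immune groups, a measure of tumour RNA there, were lowest in D+F+P: 491, 495, 507 and 307 CPM in monocyte/macrophage-like cells and 264, 183, 280 and 83.0 CPM in T-like cells. Their part in the immune values was not tested.

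**Figure D3:**
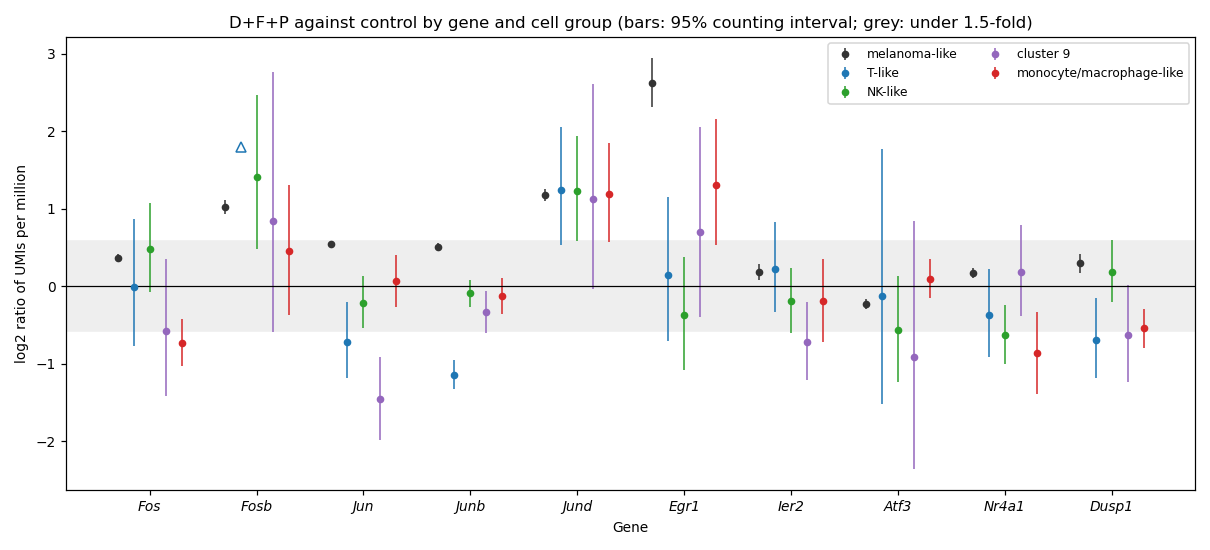
log2 ratio of CPM, D+F+P against control, for each gene in 5 cell groups. Bars are 95% counting intervals, and the grey band is under 1.5-fold. The open triangle is the value for Fosb in T-like cells with 3 UMIs set in place of 0 in control. The 5 points of Jund lie between 1.13 and 1.24, while those of Egr1 run from -0.37 to 2.62.

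The share of each gene's variation that lay between libraries was described by an additive split of log2(CPM + 10) over the 5 groups and 4 libraries. For Jund, the library accounted for 68.9% of the sum of squares and the cell group for 27.7%. For Fosb the shares were 29.4% and 50.04%. The other 8 members had 0.665% (Atf3) to 5.80% (Jun) between libraries and 78.3% to 96.9% between cell groups. Melanoma-like Egr1 in control, aPD-1 and D+F (3.43, 5.85 and 7.26 CPM) lay below the 10 CPM added here. Its differences between libraries are therefore made smaller in this split. Over 5318 genes with a mean of at least 20 CPM the medians were 5.80% and 69.5%. Adding cluster 6 as a further group brought the library share of Jund to 30.2%, and leaving out any of the 5 groups gave 64.0% to 88.2%. For Fosb, leaving out a group gave 27.1% to 45.7%, the highest without T-like cells.

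**Figure D4:**
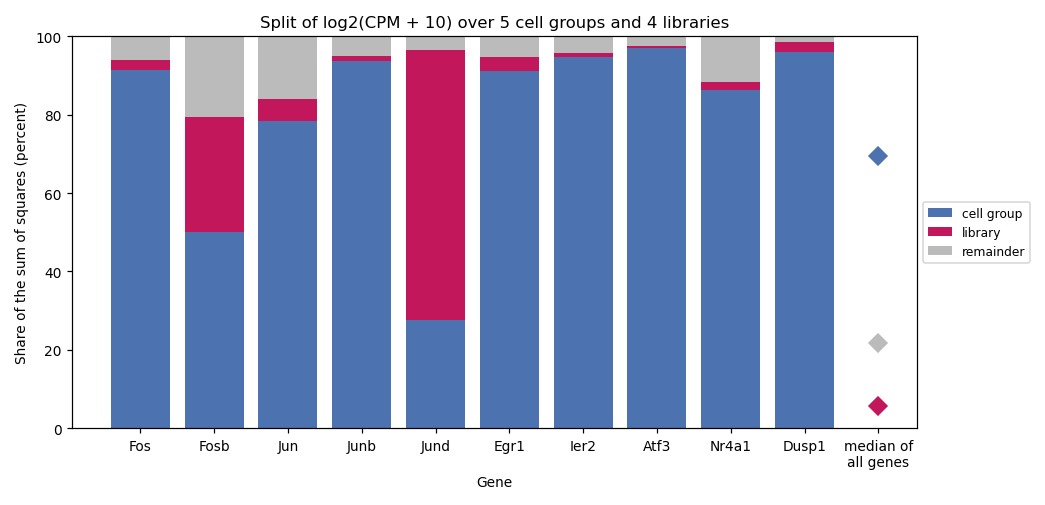
Share of the sum of squares of log2(CPM + 10), in percent, that lies between 5 cell groups, between 4 libraries and in the remainder; bars are the 10 genes and diamonds the medians over all genes. The library share is 68.9% for Jund, 29.4% for Fosb and under 6% for the other members.

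Within a library the members varied together from cell to cell to a limited degree. Over melanoma-like cells of at least 5000 UMIs (513 to 1834 a library), the Pearson correlation of Fos with Jun was 0.45 to 0.50, that of Jun with Atf3 0.39 to 0.42, and that of Junb with Nr4a1 0.35 to 0.49. The median over all pairs was 0.16 to 0.21. Cells of a library share its depth and handling, so these are descriptions. Across 38 points of cell group and library, centred within group, the gene most like the summed level of the 10 was Gimap4 (r = 0.80), then Ppp1r15a (0.76), Tnfrsf18 (0.75), Lcp1 (0.74) and Lcp2 (0.73), among 5790 genes. The members are part of this sum and weigh in it by their level, so their own correlations with it are not given as a result.

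Other genes of the pathway are given for D+F+P against control in melanoma-like cells, where 9.98% of genes were 1.5-fold higher and 10.8% lower. Of 33 measured rapid-response genes other than the 10, 10 were higher and 1 lower, with a median log2 ratio of 0.32. They included Maff, a small Maf protein (1.71, 1.52 to 1.90), Socs3, an inhibitor of cytokine signalling (1.32, 1.18 to 1.46), and Dusp5, an ERK phosphatase (2.33, 1.30 to 3.44). Trib1 was lower (-0.74, -0.93 to -0.56). Among 16 other AP-1 and ATF subunits 4 were higher and none lower, led by Batf2 (1.95, 1.78 to 2.11), and the median was 0.06. The 19 kinases and factors upstream had a median of -0.0013, with none 1.5-fold apart. Of 12 ERK feedback genes none was higher and 3 lower: Phlda1 (-0.75, -0.80 to -0.71), Etv5 (-0.80) and Etv4 (-0.86). Heat shock genes, which handling is also known to induce, had a median of -0.38 over 16, with 1 higher and 4 lower, among them the small chaperone Hspb1 (-2.39, -2.63 to -2.16).

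Genes downstream of the T cell receptor were low in melanoma-like cells. Of 9 measured there, 5 were higher in D+F+P than in control and none lower (median 0.79). They included Cd69 (2.04, 1.01 to 3.14) and Xcl1 (1.71, 0.61 to 2.85), and T cell markers were higher there too, as given above. Their part in the melanoma-like values was not tested. In T-like cells of D+F+P against D+F, where 12.4% of all genes were higher and 8.22% lower, 1 of 15 of these genes was higher, Ccl4 (0.80, 0.69 to 0.92), and 4 lower, among them Xcl1 (-1.10), Il2ra (-0.81) and Tnfrsf4 (-0.79). Of 32 other rapid-response genes there, 7 were higher, led by Dusp2, a phosphatase of activated lymphocytes (2.20, 1.94 to 2.47), and 5 lower. In monocyte/macrophage-like cells of D+F+P against control, 7 of 29 rapid-response genes were higher and 5 lower, shares near the 21.4% and 16.0% of all genes. The lower ones included Nfkbiz (-1.55), Tnfaip3 (-1.05) and Nfkbia (-0.97). Heat shock genes there had 0 of 11 higher and 3 lower, led by Hspa1a (-1.97, -2.54 to -1.43). In the same comparison NK-like cells had 1 of 12 higher (18.3% of all genes) and 3 lower (19.5%). T-like cells had 3 of 16 higher (27.5%) and 4 lower (25.7%). Hspa1a and Hspa1b together rose from 25.3 CPM in control to 135 in D+F+P in NK-like cells. They rose from 7.995 to 59.5 in T-like cells and fell from 326 to 57.1 in cluster 9.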

How the data were processed

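The authors deposited matrices of UMI counts, whole numbers for every gene in every barcode (file headers). Cell Ranger 3.1.0 and the builds GRCm38 and mm10 are named in the submitters' processing notes. The annotation release, strand setting and any later filter were not given in the sources used here. Libraries held 22691663 to 34444856 UMIs. The members, gene lists and comparisons were chosen with earlier results of these data known.

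Kept barcodes had 300 genes or more, 500 UMIs or more and no more than 20% of UMIs from mitochondrial genes. No doublet caller was run, so doublets remain. Clusters came from 2000 variable genes (the listed genes left out), 30 principal components, 15 neighbours and Leiden resolution 1 (leidenalg 0.10.2, Python 3.11.15), without integration. A name needed 3 markers, each in 10% of cells, and a mean marker score of at least 0.5. Cluster 8, at 0.498, fell just under it. Clusters whose 10 leading genes favoured another class, or thin ones, stayed unnamed.

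UMIs were summed per group and library and divided by all gene UMIs, giving CPM (scaled to 1000000). Ratios carry exact conditional binomial intervals, checked on counts simulated from melanoma-like control cells. Gaps between groups carry an interval from the summed reciprocal counts, which was not simulated. That interval does not allow for the choice of the highest and lowest group. Ratios were taken between libraries with 20 cells or more of a group, for genes with 20 UMIs or more in the pair. The order of levels across groups used groups with 10 cells or more in every library. Named genes were the 10 members, for each other list up to 3 genes at either end by interval bound, and the 5 most like the summed members. Alternatives changed clustering, naming, filter, depth, scaling, denominator, weighting, free RNA and minimum count. The grouping into 5 cell groups and the alternatives on cluster 6, cluster 9 and single clusters were chosen after seeing the data.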

Additional observations from a re-analysis of the deposited data

Results flagged for a closer look

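For a gene and a pair of libraries, cell groups were listed when the 95% counting interval of the log2 ratio lay above 0 in one group and below 0 in another. Of 50 pairs of gene and comparison over the 5 cell groups, 21 met this. The share of all genes that would meet it was not computed, so this count is no result about the members. When the ratio also had to reach 1.5-fold in both directions, 1 did, Junb in aPD-1 against control. The looser definition was chosen after the values were seen, when a first run of the stricter one without T-like cells had listed nothing. None of these differences between groups was tested against variation between animals, and narrow intervals in melanoma-like cells reflect their many UMIs. T-like ratios against control rest on 21 control cells, mostly of the cluster led by Foxp3.

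In aPD-1 against control, the log2 ratio of Jun was 0.19 in melanoma-like cells, but -0.75 in T-like cells and -1.17 in cluster 9. Junb had 0.65 in monocyte/macrophage-like cells, but -0.059 in melanoma-like cells and -0.81 in T-like cells. Atf3 had 0.37 in monocyte/macrophage-like cells, but -0.20 in melanoma-like cells.

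In D+F against control, the log2 ratio of Fos was 0.35 in monocyte/macrophage-like cells and 0.92 in NK-like cells, but -0.067 in melanoma-like cells. Jun had 0.46 in melanoma-like cells, but -0.60 in T-like cells, -1.28 in cluster 9 and -0.52 in NK-like cells. Junb had 0.41 in melanoma-like cells and 0.29 in monocyte/macrophage-like cells, but -0.54 in T-like cells. Nr4a1 had 0.68 in cluster 9, but -0.29 in melanoma-like cells.

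In D+F+P against control, the log2 ratio of Fos was 0.36 in melanoma-like cells, but -0.73 in monocyte/macrophage-like cells. Jun had 0.54 in melanoma-like cells, but -0.72 in T-like cells and -1.46 in cluster 9. Junb had 0.51 in melanoma-like cells, but -1.14 in T-like cells and -0.34 in cluster 9. Ier2 had 0.19 in melanoma-like cells, but -0.72 in cluster 9. Nr4a1 had 0.17 in melanoma-like cells, but -0.86 in monocyte/macrophage-like cells and -0.63 in NK-like cells. Dusp1 had 0.30 in melanoma-like cells, but -0.69 in T-like cells and -0.55 in monocyte/macrophage-like cells.

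In D+F+P against D+F, the log2 ratio of Fos was 0.43 in melanoma-like cells, but -1.08 in monocyte/macrophage-like cells and -0.67 in cluster 9. Junb had 0.095 in melanoma-like cells, but -0.61 in T-like cells, -0.41 in monocyte/macrophage-like cells, -0.45 in cluster 9 and -0.26 in NK-like cells. Nr4a1 had 0.46 in melanoma-like cells, but -0.51 in cluster 9.

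In D+F+P against aPD-1, the log2 ratio of Fos was 0.38 in melanoma-like cells, but -1.23 in monocyte/macrophage-like cells and -1.03 in cluster 9. Junb had 0.57 in melanoma-like cells, but -0.33 in T-like cells, -0.78 in monocyte/macrophage-like cells, -0.31 in cluster 9 and -0.19 in NK-like cells. Egr1 had 1.85 in melanoma-like cells and 0.76 in monocyte/macrophage-like cells, but -0.27 in T-like cells. Ier2 had 0.27 in melanoma-like cells, but -0.19 in T-like cells and -0.43 in NK-like cells. Nr4a1 had 0.50 in melanoma-like cells, but -0.98 in monocyte/macrophage-like cells and -0.55 in NK-like cells.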

How the results depend on the processing

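The medians of the 10 genes (15 comparisons, 152 alternatives) stayed within a counting band in 136 and moved past it in 16, and they kept their sign in 132. The band ran from the median of the members' lower interval bounds to the median of their upper bounds. It is the width typical of a single gene, not the counting error of the median. In melanoma-like cells, aPD-1 against control (0.09) gave 0.18 thinned to 1000 UMIs a cell, 0.14 with median-of-ratios scaling, 0.14 without mitochondrial and ribosomal protein genes and 0.16 within clusters. D+F against control (0.18) gave 0.28 thinned and 0.37 within clusters. D+F+P against control (0.44) gave 0.57 thinned, 0.53 with median-of-ratios scaling, 0.49 without mitochondrial and ribosomal protein genes, 0.54 with cells weighted equally and 0.54 within clusters. D+F+P against aPD-1 (0.44) gave 0.51 with cells weighted equally. In T-like cells, D+F+P against D+F (-0.15) gave 0.062 thinned and 0.079 with low-ribosomal barcodes put back, which also took D+F+P against aPD-1 (-0.02) to 0.22. In monocyte/macrophage-like cells, aPD-1 against control (0.46) gave 0.78 with cells weighted equally. Single members at least 1.5-fold apart (67 results, 612 alternatives) kept their sign in 608 and stayed past 1.5-fold in 557. Reversed were Egr1 in monocyte/macrophage-like cells with cells named by their own markers (-1.69 against control, -1.23 against aPD-1) and Fosb in cluster 9, D+F+P against D+F, when thinned (0.96 became -0.10). The genes at least 1.5-fold higher in all groups numbered 17, 4 with cluster 6 added and 31 without T-like cells, and the library share of Jund, 68.9%, was 30.2% with cluster 6. Median-of-ratios scaling shifted all T-like ratios of D+F+P against control together (Jun from -0.72 to -0.54). The causes were not tested. Thinning left out 1 to 6 melanoma-like cells a library, 0 to 3 T-like, 2 to 3 NK-like, 3 to 29 monocyte/macrophage-like and 0 to 10 of cluster 9. No paired analysis was possible because each group was 1 library. Depth limits T-like cells and cluster 9 of the control library most.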
